A study of Homo sapiens with 6 samples.

Results

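The genes described here are 30 genes of the p53 pathway, chosen by name as known regulators or targets of p53, of which 27 could be measured among 19775 genes. They were read in HUVECs, primary endothelial cells of the umbilical vein, on Affymetrix U133 Plus 2.0 arrays that report log2 signal. A group of 3 arrays came from cells transfected with ANRIL-specific siRNA and a group of 3 from cells transfected with control scrambled siRNA, both delivered with the TransIT-X2 reagent. ANRIL is a long noncoding RNA of the CDKN2A and CDKN2B locus, and the comparison addresses which genes depend on it. The sources used here give neither the dose nor the time after transfection, and a single siRNA duplex was used, so effects of its target and of its sequence cannot be told apart. The study's design text mentions 3 sets of cells but does not say whether these were separate cultures or donors. If they were not, p-values measure only the spread between these samples, which may be technical.

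Each gene was represented by the probe set with the highest mean over the 6 arrays among those listed for that gene alone. The 27 measured members had 65 such probe sets, 1 each for 13 members and 2 or more for 14. BBC3, which encodes the BH3-only protein PUMA, was listed only on a probe set shared with other genes and is left out. BTG2 and FDXR were not analysed here.

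p53 is a transcription factor held low by the ubiquitin ligase MDM2 and its relative MDM4. When DNA damage or other stress releases it, p53 raises genes that halt the cell cycle, repair DNA, adjust metabolism or trigger cell death, and it also raises MDM2, which closes a negative feedback loop. In endothelial cells this pathway is known for its part in senescence and in the response to radiation and oxidative stress.

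The duplex that distinguishes the groups is shown first, since every difference below is between cells that received it and cells that received the scrambled control. Its sense strand has 25 bases and its antisense strand 27, of which 25 pair, and both are written here from 5′ to 3′ as the labels give their letters.
sense strand: ggauaugugccaugaguaagaauaa
antisense strand: uuauucuuacucauggcacauauccau

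p53 binds a pair of half-sites, and the promoters in which such letters were found are shown because they belong to members described below. The window ran from 250 bases before to 50 after each annotated start in RefSeq GRCh38.p14, and 23 of the 27 measured members matched the table with 32 promoters. The p53 consensus half-site was present for 4 of the 23 members, PLK2, SESN1, DDB2 and AEN, or in 4 of their 32 promoters, against 6.63% of all 35116 promoters and 8.06% of the 27305 genes that these belong to. A pair of these half-sites with 0 to 13 bases between them was found only for DDB2 among the members, and in 10 promoters of the whole table (0.0285%). The joined p53 core, which is the inner part of adjacent half-sites without their outer letters, was found for AEN and GDF15 and in 0.0883% of all promoters. In AEN it overlaps the half-site. Each pattern reads the same on both strands. Capitals mark the pair of half-sites in DDB2 and the joined core in AEN and GDF15.
DDB2, chr11:47214724-47215023, plus strand: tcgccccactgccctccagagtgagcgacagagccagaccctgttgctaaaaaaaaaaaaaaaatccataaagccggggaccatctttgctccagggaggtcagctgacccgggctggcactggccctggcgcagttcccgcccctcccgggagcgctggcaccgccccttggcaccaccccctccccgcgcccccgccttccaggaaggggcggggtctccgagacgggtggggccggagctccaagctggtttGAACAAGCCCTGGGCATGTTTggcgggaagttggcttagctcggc
AEN, chr15:88621090-88621389, plus strand: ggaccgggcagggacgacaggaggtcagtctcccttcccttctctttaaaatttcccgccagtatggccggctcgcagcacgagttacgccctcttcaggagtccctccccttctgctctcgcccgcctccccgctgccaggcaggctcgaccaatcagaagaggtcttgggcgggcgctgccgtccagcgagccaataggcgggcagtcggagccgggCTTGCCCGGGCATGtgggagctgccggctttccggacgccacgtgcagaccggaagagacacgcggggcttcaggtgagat
GDF15, chr19:18385908-18386207, plus strand: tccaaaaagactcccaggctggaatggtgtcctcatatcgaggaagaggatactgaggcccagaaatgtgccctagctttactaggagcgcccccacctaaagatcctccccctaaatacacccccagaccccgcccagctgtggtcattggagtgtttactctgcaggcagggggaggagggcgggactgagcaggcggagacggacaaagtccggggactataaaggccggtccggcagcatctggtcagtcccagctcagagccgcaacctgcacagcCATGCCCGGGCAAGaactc
With the annotated start as position 0, the marked letters lie at 5 to 25 in DDB2, at −31 to −18 in AEN and at 31 to 44 in GDF15. A match describes the letters only, and p53 binding was not measured. Of these genes DDB2 and GDF15 were lower with ANRIL siRNA with no overlap between the groups, while the groups overlapped for AEN, as given below.

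Most members were slightly lower with ANRIL siRNA, and with a constant prior no single member passed the threshold. Of the 27 members, 23 were below 0 in the difference of ANRIL siRNA minus control siRNA, where 51.4% of all genes were. Their median log2 difference was −0.11 and that of all genes was 0.00. The differences ran from −0.36 for GADD45A to 0.13 for GADD45G, which are 77.9% and 109% of the control level. With limma and a constant prior, 0 members were called lower and 0 higher at an adjusted p under 0.05 (0% of all genes in either direction), and the members' adjusted p-values lay between 0.125 and 0.903. At an unadjusted p under 0.05, 9 members were lower (8.16% of all genes) and 0 were higher (9.83% of all genes). The count of 9 was 4 without control siRNA replicate 2 (4.43% of all genes) and 5 without ANRIL siRNA replicate 1 (5.48% of all genes). The 3 arrays of each group did not overlap for 14 members, all lower with ANRIL siRNA (12.8% of all genes were lower without overlap, and 10.6% higher). Among genes at or above the median signal 23.2% were lower without overlap, as were 14 of the 26 members there. In RNA from whole cultures, fewer cells of a type and less RNA per cell cannot be told apart.

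On each array the members' deviation from their control means had a median of −0.03, 0.05 and −0.02 with control siRNA and of −0.11, −0.06 and −0.16 with ANRIL siRNA. The groups did not overlap in this median, which is a description of the chosen members and was not tested. Over all genes the same median lay between −0.02 and 0.01 on the 6 arrays. That comparison is not matched for signal. Most members were bright, and in deciles 7 to 10 of signal, counted from the dimmest, the median difference of all genes was −0.08 to −0.04. The median on each array was not computed for genes of like signal.

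**Figure D1:**
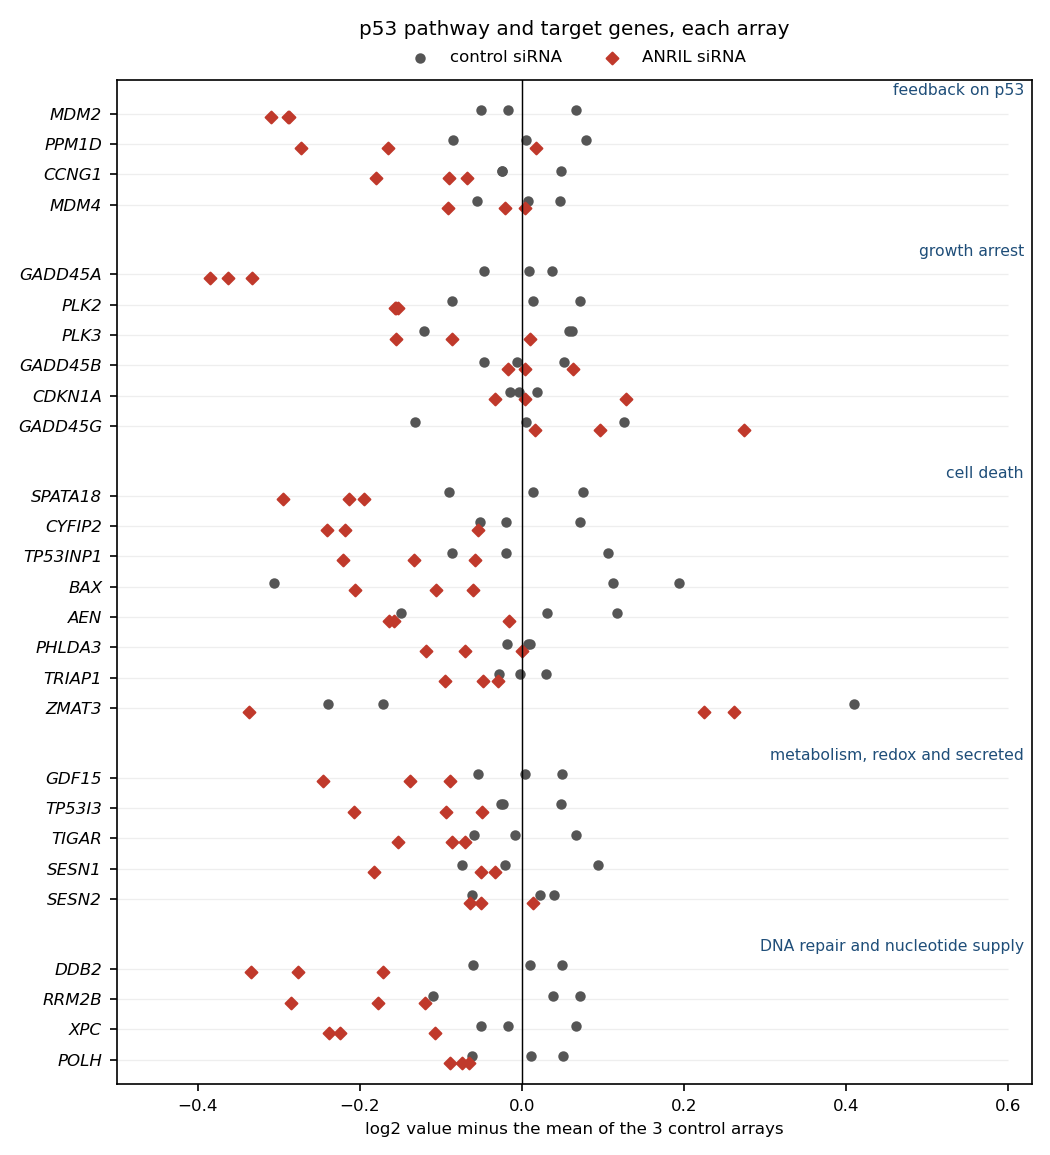
Log2 value of each measured member on each array minus the mean of its 3 control arrays (horizontal axis), with members in rows by role, grey circles for control siRNA and red diamonds for ANRIL siRNA. The red diamonds of GADD45A, MDM2, DDB2 and SPATA18 lie to the left of all their grey circles, whereas those of CDKN1A, GADD45B and ZMAT3 lie among or around them.

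The members were read by bright probe sets, and over all genes the brighter ones leaned downward after ANRIL siRNA. Signal depends on the probes as well as on the RNA, so it does not rank genes by their level. Of the 27 members 26 lay above the median signal of all genes. Of these 26, 23 were below 0, where 74% of all genes at or above the median signal were. The brightest decile of signal held 9 members. In that decile the median difference of all genes was −0.07 and 87.7% of genes were below 0, while in the dimmest decile the median was 0.06. The 9 members in the brightest decile had a median of −0.14, the 5 in the next −0.12 and the 6 in the one after −0.10, where all genes in the latter deciles had −0.08 and −0.07. In all, 20 of the 27 members were below the median of all genes in their own decile of signal. After cyclic loess, a scaling meant to remove a trend with signal, 20 members were below 0 (46.3% of all genes), the members' median was −0.05 and that of all genes 0.01. At an unadjusted p under 0.05, 5 members were then lower (5.88% of all genes). The groups did not overlap for 5 lower members, all of them also without overlap as deposited (8.61% of all genes), and for 2 higher members, CDKN1A and GADD45B (11.2% of all genes). The share of the trend in the members' differences was not tested further.

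**Figure D2:**
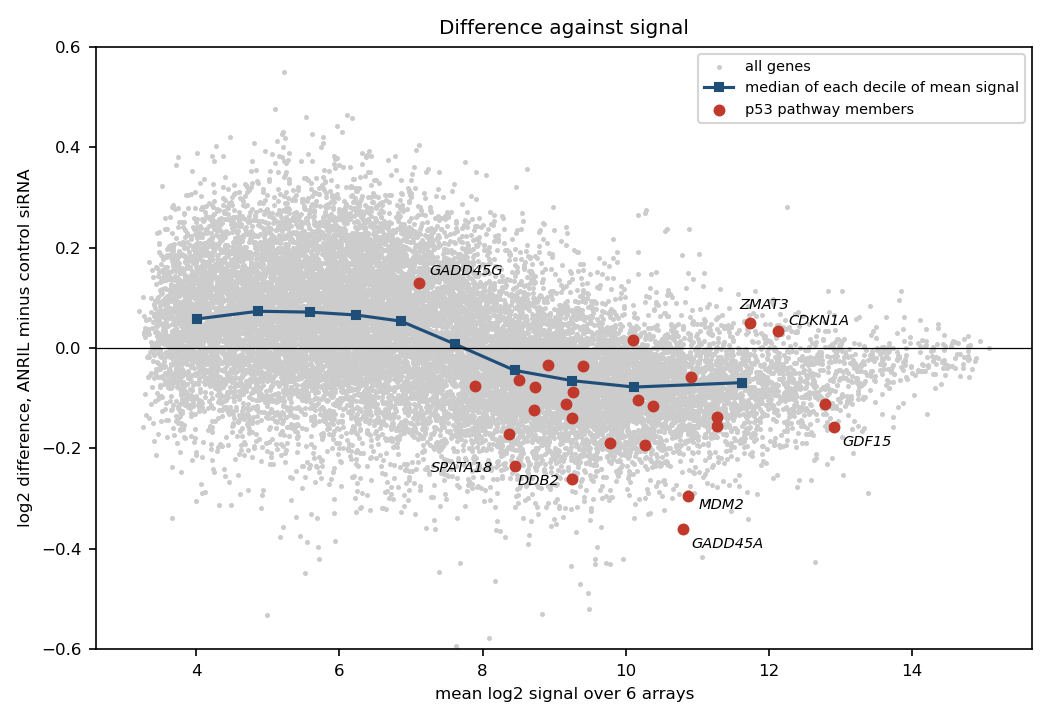
Log2 difference of each gene, ANRIL siRNA minus control siRNA, against its mean log2 signal over the 6 arrays, with all genes in grey, the median of each decile of signal in blue squares and the members in red. The blue line passes from 0.06 in the dimmest decile to −0.07 in the brightest, and GADD45A, MDM2, DDB2 and SPATA18 lie furthest below it among the members.

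The constant prior shares 1 estimate of the spread over genes of all signals, and limma can also let that estimate follow the signal. With limma's intensity-trended robust prior 4 members were called lower (2.15% of all genes) and 0 higher (0.582% of all genes). The 4 were GADD45A (adjusted p = 0.000445), MDM2 (0.00282), DDB2 (0.0255) and GDF15 (0.0384). The share of genes called lower rose with signal. It was 8.49% in the brightest decile, which held GADD45A, MDM2 and GDF15. In decile 8, counted from the dimmest, which held DDB2, it was 3.99%. GADD45A and MDM2 were also called with this prior after cyclic loess (adjusted p = 0.00485 and 0.0193; 0.379% of all genes were called lower and 0.298% higher), but DDB2 and GDF15 were not (0.0704 and 0.323). The number of members called depended on single arrays. It was 1 without control siRNA replicate 2 (0.192% of all genes were called lower) and 2 without ANRIL siRNA replicate 1 (0.576%). Leaving out ANRIL siRNA replicate 2 gave 10 (5.65%). In these fits the number called over all genes moved in the same direction as the members' number. Without control siRNA replicate 3 it did not, with 5 members and 2.03% of all genes called lower. GADD45A was called without each of the 6 arrays in turn, with adjusted p-values up to 0.0132. MDM2 was called without each except control siRNA replicate 2 (0.0521). DDB2 kept its call only without control siRNA replicate 1 or ANRIL siRNA replicate 2, with adjusted p-values up to 0.159 otherwise. GDF15 kept its call only without ANRIL siRNA replicate 2 or 3, with values up to 0.239 otherwise.

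Among the genes that feed back on p53, all 4 were below 0, as were 74% of all genes at or above the median signal. MDM2 stood furthest from 0. MDM2, on chromosome 12, encodes the ligase that marks p53 for degradation and is itself a classical p53 target. Its log2 values were 10.96, 11.08 and 11.00 on the control arrays and 10.73, 10.70 and 10.73 on the ANRIL siRNA arrays. Every ANRIL siRNA array was below every control array. The difference was −0.30 ± 0.06 (SE over 3 arrays per group, 95% interval −0.43 to −0.16), a 1.23-fold lower level, with an adjusted p of 0.138 in limma's constant-prior fit and rank 71 of 19775 genes by p.

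MDM2 was read by 10 probe sets, of which 7 were lower and 3 higher. The next brightest was lower as well, at 9.59, 9.71 and 9.43 on the control arrays against 9.31, 9.32 and 9.40, also without overlap. This direction was not shared by all. The 3 higher ones were among the 4 dimmest, and the dimmest but 1 differed by 0.30 ± 0.08 at log2 levels of 4.23 to 4.75, without overlap. None of these passed over all 54613 probe sets with the constant prior, and their mean difference was −0.05. Which MDM2 transcripts each probe set reads was not analysed here.

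MDM4, which binds p53 and blunts its activity without degrading it, had 9.36, 9.46 and 9.42 on the control arrays and 9.33, 9.42 and 9.40 on the ANRIL siRNA arrays. The groups overlapped, and the difference of −0.04 ± 0.06 had a 95% interval of −0.17 to 0.10. It was 0.04 after cyclic loess, and 4 of its 6 probe sets were higher, 1 of them by 0.25 ± 0.06 without overlap. CCNG1, the gene of cyclin G1, which helps MDM2 become active, was read by a bright probe set, at 12.89, 12.82 and 12.82 against 12.75, 12.77 and 12.66. Its groups did not overlap, by a narrow margin, and it differed by −0.11 ± 0.06. PPM1D, which encodes the phosphatase WIP1 that switches off p53 and its kinases, differed by −0.14 ± 0.08. Its ANRIL siRNA replicate 2 at 9.34 lay among the controls of 9.24 to 9.40. The other, dimmer probe set of PPM1D was higher by 0.09 ± 0.06 without overlap, and the mean of both was −0.02. None of MDM4, CCNG1 and PPM1D passed with either prior.

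The genes of growth arrest did not move together. GADD45A, a stress-induced inhibitor of cell cycle progression on chromosome 1, differed most of all members. Its log2 values were 10.98, 11.01 and 10.92 on the control arrays and 10.59, 10.61 and 10.64 on the ANRIL siRNA arrays. The groups lay well apart compared with their spread. The difference was −0.36 ± 0.06 (95% interval −0.49 to −0.23), a 1.28-fold lower level at rank 12 of 19775 genes by p, and its adjusted p in limma's constant-prior fit was 0.125. It was read by 1 probe set, and it differed by −0.28 after cyclic loess.

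Its relatives GADD45B and GADD45G encode proteins of the same small family of stress sensors. GADD45B had 10.04, 10.14 and 10.08 on the control arrays and 10.07, 10.15 and 10.09 on the ANRIL siRNA arrays. The groups overlapped almost fully, and the difference was 0.02 ± 0.06 (95% interval −0.12 to 0.15). It was 0.10 after cyclic loess, where the groups no longer overlapped (adjusted p = 0.247 with the trended prior), and −0.03 with arrays centred on their medians, so its sign depends on the scaling. GADD45G, whose probe set had the lowest signal of the members, had 6.92, 7.06 and 7.18 against 7.33, 7.15 and 7.07 and differed by 0.13 ± 0.09, again with overlap. Whether the difference of GADD45A exceeds those of its relatives was not tested.

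CDKN1A encodes p21, the cyclin-dependent kinase inhibitor through which p53 halts the cell cycle in G1, and is the best known p53 target. Its probe set was bright, at 12.09, 12.10 and 12.12 on the control arrays and 12.11, 12.23 and 12.07 on the ANRIL siRNA arrays. The groups overlapped, with ANRIL siRNA replicate 2 above all other arrays. The difference was 0.03 ± 0.06 and its 95% interval of −0.11 to 0.17 excludes a change as large as that measured for GADD45A or MDM2 in the deposited values. It was 0.11 after cyclic loess, where the groups no longer overlapped (adjusted p = 0.119 with the trended prior), −0.02 with arrays centred on their medians and −0.01 without ANRIL siRNA replicate 2, so its sign depends on the scaling and on 1 array.

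The polo-like kinases PLK2 and PLK3 are stress-response kinases raised by p53. PLK2 had 11.37, 11.43 and 11.27 on the control arrays and 11.20 on each of the 3 ANRIL siRNA arrays. The groups did not overlap and it differed by −0.16 ± 0.06 (adjusted p = 0.238, or 0.078 with the trended prior). PLK3 had 8.66, 8.84 and 8.83 against 8.62, 8.79 and 8.69. Its groups overlapped and the difference was −0.08 ± 0.07, and each of its 3 probe sets had that sign.

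All 4 genes of DNA repair and nucleotide supply were lower with no overlap between the groups. These 4 lay above the median signal. Lower without overlap were 12.8% of all genes and 23.2% of those at or above the median signal. DDB2, which encodes the damage sensor of nucleotide excision repair that recognises ultraviolet lesions, had 9.32, 9.43 and 9.39 on the control arrays and 9.10, 9.21 and 9.04 on the ANRIL siRNA arrays. Its difference was −0.26 ± 0.07 (95% interval −0.41 to −0.11), a 1.20-fold lower level with an adjusted p of 0.154 with the constant prior. XPC, the partner sensor of the same repair pathway, had 9.83, 9.94 and 9.86 against 9.64, 9.77 and 9.65. It differed by −0.19 ± 0.06 and did not pass (adjusted p = 0.192, or 0.0733 with the trended prior).

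RRM2B encodes the p53-induced subunit of ribonucleotide reductase, which supplies deoxynucleotides for repair. It had 10.43, 10.40 and 10.25 on the control arrays and 10.24, 10.19 and 10.08 on the ANRIL siRNA arrays. The lowest control array lay just above the highest ANRIL siRNA array, and the difference was −0.19 ± 0.07 (adjusted p = 0.213). POLH, the gene of the translesion polymerase eta, differed by −0.08 ± 0.06 at its brightest probe set, where the lowest control array at 7.87 lay just above the highest ANRIL siRNA array at 7.86. Of its 6 probe sets 3 were higher, 1 of them by 0.27 ± 0.08 without overlap, so the direction of POLH depends on the probe set. After cyclic loess DDB2 and XPC still had no overlap, at −0.19 and −0.11, and RRM2B and POLH overlapped.

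Among the 8 measured genes of cell death, 7 were below 0 and 3 had no overlap. Of all genes at or above the median signal, where these 8 lay, 74% were below 0 and 23.2% were lower without overlap. SPATA18, which encodes the mitochondrial quality control protein Mieap, had 8.64, 8.58 and 8.48 on the control arrays and 8.37, 8.35 and 8.27 on the ANRIL siRNA arrays. It differed by −0.23 ± 0.07 (adjusted p = 0.163, or 0.0539 with the trended prior). Its other probe set moved the opposite way, at 6.25, 6.38 and 6.40 against 6.52, 6.48 and 6.74, also without overlap, with a difference of 0.24 ± 0.08. The mean of both was 0.00, so the array gives no single direction for SPATA18.

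CYFIP2, a p53-induced gene whose protein sits in the WAVE actin regulatory complex, had 8.43, 8.52 and 8.40 on the control arrays and 8.21, 8.40 and 8.23 on the ANRIL siRNA arrays. It differed by −0.17 ± 0.07, with the highest ANRIL siRNA array level with the lowest control array, and both of its probe sets were lower. TRIAP1, a small protein that restrains apoptosis, differed by −0.06 ± 0.06 without overlap and by 0.02 after cyclic loess. TP53INP1, a nuclear cofactor that promotes p53-dependent death and autophagy, differed by −0.14 ± 0.07 with overlap, and 2 of its 3 probe sets were higher. BAX, which forms pores in the mitochondrial outer membrane, had a wide control spread of 8.47 to 8.97 against 8.57 to 8.72 and differed by −0.12 ± 0.11. Its difference ran from −0.28 without control siRNA replicate 1 to −0.03 without control siRNA replicate 3, and its other probe set was at 0.02. The nuclease gene AEN (−0.11 ± 0.08) and PHLDA3, whose protein represses AKT (−0.06 ± 0.06), overlapped too.

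ZMAT3 encodes an RNA-binding protein that is a prominent p53 target, and its probe sets disagreed. The brightest split the arrays without regard to group, at 12.11, 11.53 and 11.47 on the control arrays and 11.97, 11.37 and 11.93 on the ANRIL siRNA arrays. Control replicate 1 and ANRIL siRNA replicates 1 and 3 were high, the others were low, and the difference was 0.05 ± 0.19. The next, at nearly the same signal, had 11.72, 11.71 and 11.62 against 11.46, 11.54 and 11.46 and no overlap. It differed by −0.20 ± 0.07 (adjusted p = 0.248 over all probe sets, or 0.058 with the trended prior). The other 3 differed by −0.10, −0.15 and −0.32, and the mean of all 5 was −0.14. The rule of the brightest probe set thus placed ZMAT3 among the 4 members above 0, while 4 of its 5 probe sets were below 0.

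All 5 measured genes of metabolism, redox control and secretion were below 0, and 3 had no overlap. Of all genes at or above the median signal, where these 5 lay, 74% were below 0 and 23.2% were lower without overlap. GDF15, a secreted stress hormone of the TGF-beta family, had the highest probe signal of the members. Its log2 values were 12.93, 13.04 and 12.99 on the control arrays and 12.74, 12.85 and 12.90 on the ANRIL siRNA arrays. The groups did not overlap, and it differed by −0.16 ± 0.07 (95% interval −0.30 to −0.01, adjusted p = 0.249), a 1.12-fold lower level. After cyclic loess it differed by −0.08 and the groups overlapped.

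TP53I3, an NADPH-dependent quinone reductase, had 10.41, 10.42 and 10.49 on the control arrays and 10.35, 10.39 and 10.23 on the ANRIL siRNA arrays and differed by −0.12 ± 0.06. TIGAR, a phosphatase that diverts sugar from glycolysis, had 10.22, 10.29 and 10.17 against 10.14, 10.16 and 10.07 and differed by −0.10 ± 0.06. Neither overlapped between the groups and neither passed. The sestrins SESN1 and SESN2, which restrain mTORC1, differed by −0.09 ± 0.07 and −0.03 ± 0.06, with overlap. SESN2 was at 0.03 after cyclic loess.

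**Figure D3:**
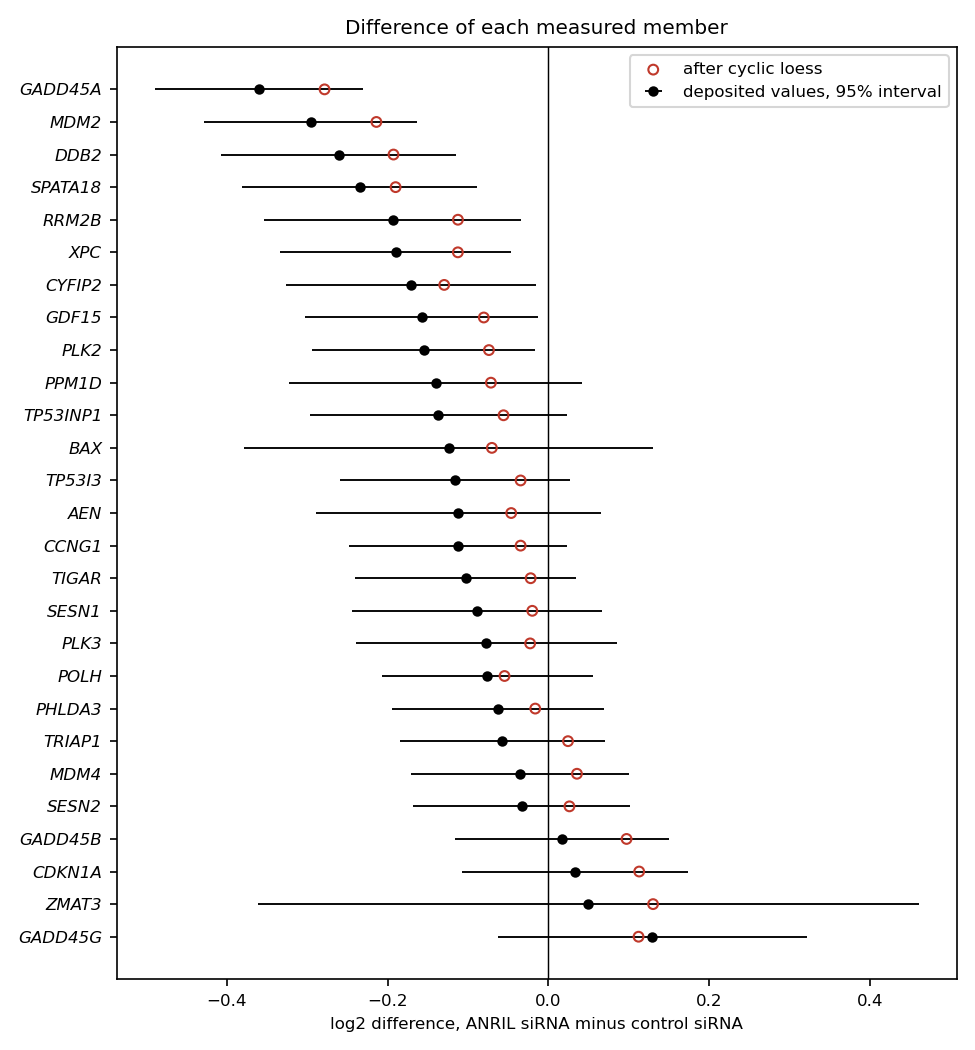
Log2 difference of each measured member, ANRIL siRNA minus control siRNA, as a black point with its 95% interval from limma's constant-prior fit, and after cyclic loess as an open red circle. The intervals of 9 members, from GADD45A to PLK2, lie below 0. The red circles lie to the right of the points for every member except GADD45G, and those of TRIAP1, MDM4 and SESN2 have crossed 0.

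Over all 65 probe sets of the members, the direction went with the signal. Of the 53 above the median signal of all probe sets 38 were lower and 15 higher, where 61% of all such probe sets were lower. Of the 12 at or below it 4 were lower and 8 higher, where 31.2% were lower. Of the 14 members with several probe sets, the directions were the same throughout for 3, CYFIP2, PLK3 and SESN2.

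**Figure D4:**
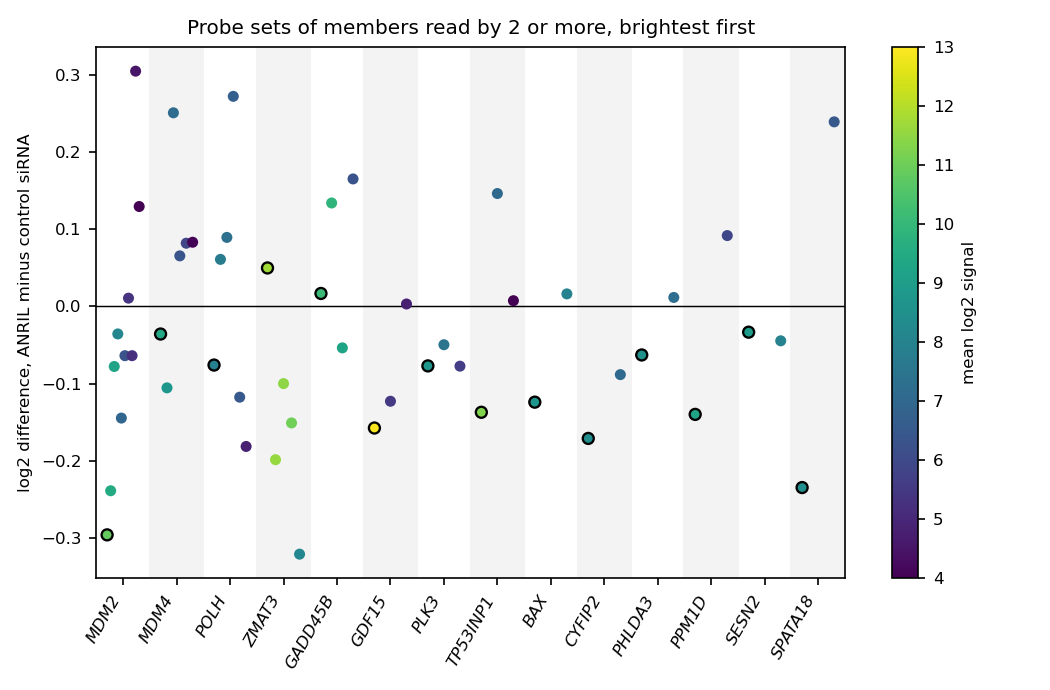
Log2 difference, ANRIL siRNA minus control siRNA, of every probe set of the 14 members with 2 or more (vertical axis), ordered within each gene from the brightest at the left, coloured by mean log2 signal, with the brightest outlined. The outlined points lie below 0 for 12 genes and above it for GADD45B and ZMAT3, and the dark, dim points lie more often above 0.

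Other genes of the pathway were read from lists chosen by name, with earlier results of these data known. Of 42 measured further p53 targets 34 were below 0 (51.4% of all genes), with a median of −0.08. At an unadjusted p under 0.05, 10 were lower (8.16% of all genes) and 0 higher (9.83%). Of the 42, 39 lay above the median signal. Among all genes at or above that signal 74% were below 0 and 19.9% were lower at an unadjusted p under 0.05. The targets of smallest p were IER3 (−0.27 ± 0.06), an early response gene, SUSD6 (−0.23 ± 0.06), TNFRSF10B (−0.23 ± 0.06), which encodes the TRAIL receptor DR5, and KITLG (−0.24 ± 0.07), the ligand of KIT. Their adjusted p-values were 0.147 to 0.166 with the constant prior. All 4 were among 5 of this list called lower with the trended prior (2.15% of all genes). In the brightest decile of signal, where IER3 and TNFRSF10B lay, 8.49% of genes were called lower. In decile 8, where SUSD6 and KITLG lay, 3.99% were. The number called from this list moved with the calls over all genes. It was 0 without control siRNA replicate 2 (0.192% of all genes called lower) and 7 without ANRIL siRNA replicate 2 (5.65%). It was 1 without control siRNA replicate 1 (0.516%) or ANRIL siRNA replicate 1 (0.576%) and 5 without control siRNA replicate 3 (2.03%). Leaving out ANRIL siRNA replicate 3 gave 2 (0.587%). With the replicate number as a block it was 8 (6.59%), and with quantiles normalized again 0 (0.354%). With cyclic loess it was 1, IER3 (0.379%). After cyclic loess 23 of the 42 were below 0 (46.3% of all genes), with a median of −0.01.

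Of 23 measured members of the p53 family and its regulators, 18 were below 0 (51.4% of all genes), with a median of −0.07. After cyclic loess 10 were below 0 (46.3% of all genes), with a median of 0.01. Of the 23, 21 lay above the median signal, and 74% of all genes at or above it were below 0. ATM, the kinase that activates p53 after double-strand breaks, differed by −0.17 ± 0.06, and the dim p53 relative TP73 by −0.18 ± 0.07. KAT5 and CHEK2 differed by −0.16 and −0.15, and none of the 23 was called with either prior. Genes of the cell cycle that p53 lowers through the DREAM repressor complex were split, with 8 of 24 below 0 and a median of 0.01. Of the 24, 9 lay above the median signal, and the list's median was at percentile 46.7 of signal. In decile 5 of signal, counted from the dimmest, 32.6% of all genes were below 0. After cyclic loess 12 of the 24 were below 0 (46.3% of all genes), with a median of −0.0014. Among them KIF23 (−0.25 ± 0.07) and CCNB1, which encodes cyclin B1 (−0.17 ± 0.06), were lower at an unadjusted p under 0.05, and UBE2C (0.16 ± 0.07) and NEK2 (0.14 ± 0.07) were not past it. None was called with either prior.

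The array gave no check of the knockdown. The probe set of ANRIL, listed as CDKN2B-AS1, read 4.08, 4.05 and 3.95 on the control arrays and 3.69, 4.05 and 4.05 on the ANRIL siRNA arrays, a difference of −0.10 ± 0.10 at percentile 4.6 of all genes. All 10 endothelial markers lay at or above percentile 78.2 of signal, 9 of them in the brightest decile, where 87.7% of all genes were below 0. All 10 were below 0, led by TIE1 (−0.42), CLDN5 (−0.34), CDH5 (−0.28) and ROBO4 (−0.23). Their mean log2 level was 11.7 to 11.8 on the control arrays and 11.5 to 11.6 on the ANRIL siRNA arrays. Of 8 leukocyte markers 7 were above 0, led by CD3E (0.22), ITGAM (0.22), CD3D (0.19) and MS4A1 (0.18). Their mean was 5.69 to 5.76 on the control arrays against 5.76 to 5.94. They lay no higher than percentile 55.6 of signal, with a median at percentile 28.7. In decile 3 of signal, counted from the dimmest, 27.2% of all genes were below 0. Fibroblast, smooth muscle and epithelial markers had means of 5.53 to 5.63, 7.44 to 7.57 and 6.65 to 6.69 on control arrays and 5.57 to 5.60, 7.52 to 7.60 and 6.67 to 6.68 on ANRIL siRNA arrays. Those of smallest p were MFAP5 (0.26), COL3A1 (−0.18), COL1A1 (0.15) and OGN (0.15), then ACTA2 (−0.26), CSPG4 (0.20), LMOD1 (0.18) and NOTCH3 (0.17), and then ESRP1 (0.30), KRT18 (−0.20), KRT19 (−0.23) and CLDN4 (0.10). The excess of 3′ over 5′ signal, a sign of RNA quality, was 0.55 ± 0.05 (SD) for ACTB with control siRNA and 0.72 ± 0.13 with ANRIL siRNA (exact permutation p = 0.2, two-sided, with 0.1 the smallest that 3 against 3 arrays allow). For GAPDH it differed by 0.06 (exact permutation p = 0.1). The part of these shifts in the members' differences was not tested.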

How the data were processed

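RNA of 6 HUVEC samples, 3 per siRNA, was measured on 1 array each. The deposited values are log2 expression per probe set, with array medians of 6.14 to 6.23. Per the submitters' processing notes RMA, affy and limma were used. RMA corrects background, normalizes quantiles and summarises probes. The sources used here give no versions, genome build or filters.

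Of 54675 probe sets 62 controls were left out. Genes were named from the platform annotation, updated through RefSeq GRCh38.p14 where 1 symbol was listed (41091 probe sets; 1801 had several and 11721 none). The brightest probe set by mean of all arrays stood for each of 19775 genes. Differences are ANRIL siRNA minus control siRNA, fitted with limma 3.58.1 in R 4.3.3 (lmFit, eBayes, constant prior) and adjusted by Benjamini-Hochberg over all genes, with a threshold of 0.05. All p-values are two-sided. The number of arrays limits precision. On simulated data for 19775 genes, the fit recovered 89% of 1.5-fold and 97% of 2-fold changes, with 9 false calls. Smaller changes were not simulated. The largest member difference was 1.28-fold, so the recovery does not tell how often changes of the members' size would be called.

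Every member is named, and in each other list the 4 genes of smallest p. The members, lists and alternatives (other priors, scalings, probe set rules, array weights, a signal filter, the replicate number as a block, arrays left out) were chosen with earlier results of these data known.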

Additional observations from a re-analysis of the deposited data

How the results depend on the processing

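Repeated quantile normalization and cyclic loess had the largest effect, among the alternatives tried, on the count without overlap. Shares in parentheses are those of all genes in the same fit. Lower members at an unadjusted p under 0.05, which numbered 9 (8.16%), were 4 when quantile normalization was repeated (5.33%), 5 with cyclic loess (5.88%), 13 with arrays centred on their medians (14.9%), 12 with the trended prior (12%), 10 among genes at or above the median signal (19.9%), 9 with array weights (10.7%), 7 under either other probe set rule (7.04% and 6.43%), and 4 to 9 with single arrays left out (4.43% to 10.4%; 4 without control siRNA replicate 2, 5 without ANRIL siRNA replicate 1). Lower members with no overlap were 14 as deposited (12.8%) and 14 among genes at or above the median signal (23.2%). They were 5 with quantiles normalized again (7.85%) or with cyclic loess (8.61%), but 14 with arrays centred on their medians (19.3%). As means of all probe sets they were 11 (10.5%), and without _s_at and _x_at probe sets 10 of 19 (10.3%). With an array left out they were 14 to 20 (14.7% to 24.4%), where 2 arrays against 3 overlap less easily. The median difference of −0.112 was −0.0453 with quantiles normalized again, −0.0462 with cyclic loess, −0.163 with arrays centred on their medians, which moved the median of all genes to −0.0549, and −0.15 to −0.0779 with an array left out. Members below 0 numbered 16 of 19 without _s_at and _x_at probe sets (46.3%) and 20 to 26 of 27 or 26 in the other alternatives (44.8% to 74%). The 26 of 27 came with arrays centred on their medians (65.6%). Among genes at or above the median signal 23 of 26 were below 0 (74%). Called members, 0 with the constant prior, were 4 with the trended prior (2.15%), 1 with arrays centred on their medians (31 of all 19775 genes) and 4 among genes at or above the median signal (254 of 9888), and 0 in each other alternative. With the trended prior the 4 called members became 2 with quantiles normalized again (0.354%) or with cyclic loess (0.379%). They became 1 to 10 with an array left out (0.192% to 5.65%).

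Whether the replicate numbers pair the arrays was not settled. Deviations of same-numbered arrays correlated at 0.06, 0.14 and −0.04, and not every array correlated best with its own number. Replicate 2 had the lowest array median of its group with control siRNA (6.14) and with ANRIL siRNA (6.185). It also had the highest median deviation of the members, at 0.05 and −0.06. The counts without overlap take no account of pairing. With the replicate number as a block, 11 members were lower at an unadjusted p under 0.05 (9.27%), 0 were called with the constant prior and 10 with the trended prior (6.59%). No member was called higher in any of these fits.

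Of the 27 members 18 kept their sign in each alternative that gave them a value. Without _s_at and _x_at probe sets 19 members had one, and among genes at or above the median signal 26. With quantiles normalized again MDM4 was at 0.0411, SESN2 at 0.0373 and TRIAP1 at 0.0381, and with cyclic loess at 0.0356, 0.0262 and 0.0245. With arrays centred on their medians CDKN1A was at −0.017, GADD45B at −0.0336 and ZMAT3 at −0.000567. As means of all probe sets MDM4 was at 0.0566, ZMAT3 at −0.144, TP53INP1 at 0.00547, SPATA18 at 0.00218 and POLH at 0.00788. With an array left out CDKN1A ran from −0.0142 to 0.0661, GADD45B from −0.00688 to 0.0431 and ZMAT3 from −0.0698 to 0.255. The cause of these turns was not tested.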
